A study of Mus musculus with 18 samples.

Results

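The Hipk and Pim kinases were followed as 7 genes, the 4 homeodomain-interacting protein kinases Hipk1, Hipk2, Hipk3 and Hipk4 and the 3 Pim kinases Pim1, Pim2 and Pim3, chosen by name from the 54232 genes of the count table. All 7 were among the 21058 genes that passed the filter on low counts, and none was chosen by its values here, although Hipk1 and Pim1 had been picked out in the study on these same libraries. RNA was measured in round spermatids (RS), haploid germ cells that have left meiosis and not yet elongated, from testes of mice aged 75 to 85 days, with 6 libraries for each of 3 genotypes. WT mice carried intact Ddx25, the gene of the RNA helicase GRTH. KO mice lacked GRTH, and in KI mice a human GRTH gene with a missense change had been knocked in, so that the phosphorylated form of the protein was missing. Germ cells of both mutants stop at the round stage, before elongation. RS were enriched by enzyme digestion and sedimentation through a gradient, and total RNA was sequenced by strand without polyA selection. Library totals (the sum of counts over genes) ran from 20606738 to 26776555 in WT, from 18766971 to 25654453 in KO and from 19996042 to 24915182 in KI. The labels do not say that the 6 libraries of a genotype came from separate mice, so p-values measure the spread between libraries, which may be technical.

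HIPK kinases are serine/threonine kinases that share a catalytic domain related to that of the DYRK kinases. HIPK1, HIPK2 and HIPK3 act mainly in the nucleus, where they phosphorylate transcription factors and their co-repressors, whereas HIPK4 lacks the homeodomain-interacting region, is abundant in the testis and is required for shaping of the sperm head. PIM kinases are short serine/threonine kinases without a regulatory domain. They are active as soon as they are made, so that their amount is set largely by transcription, often through JAK-STAT signals, and by turnover of mRNA and protein.

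The targeted gene was read first as a check of the labels. Ddx25 lay between 538 and 607 CPM (normalized counts of a gene, scaled to library size with TMM factors) in WT and between 47.7 and 90.9 CPM in KO. In KI it lay between 0.0456 and 0.519 CPM in 5 libraries and at 56.9 CPM in the library labelled KI 4, which is inside the KO range. The counts of that library were also closer to those of KO 2 than any other pair of libraries. Their squared differences, by the median over genes, were 1.59 times the variance expected from counting alone. It was kept in KI under its label, and leaving it out changed neither the number of kinase genes past 1 log2 unit nor which way any called kinase gene moved. Another 6 pairs were WT 1 and 2, WT 3 and 4, WT 5 and 6, KO 4 and 5, KI 1 and 2, and KI 3 and 5. By the same measure these were at 2.07 to 3.02 times the counting variance, against 4.64 for the next pair. Results with each close pair joined are given where they end a reported call or move a reported count by over 1.5 times.

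In RS of both mutants Hipk1 and Pim1 fell between 2.97-fold and 3.98-fold, while none of their 5 paralogs passed the test against 1 log2 unit. Past 1 log2 unit (edgeR glmTreat, Benjamini-Hochberg adjusted p under 0.1) 2 of the 7 genes were lower in KO than in WT, where 1.13% of all genes tested were lower by that test, and 2 of 7 were lower in KI, where 1.43% were. Once the close pairs were summed, 1 of 7, Pim1, passed in each. With the threshold of no change (glmQLFTest, a change of any amount), 2 of 7 were lower and 1 of 7 was higher in KO, beside 13.5% of all genes lower and 16.4% higher. In KI the same test called 2 lower and 1 higher, beside 15.4% and 16.1% of all genes. The KO and KI comparisons share the WT libraries, and Hipk1 and Pim1 were picked in the study on these libraries, so the counts are not independent evidence of their direction. In a bulk library, fewer cells of a type and less RNA per cell cannot be told apart.

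**Figure D1:**
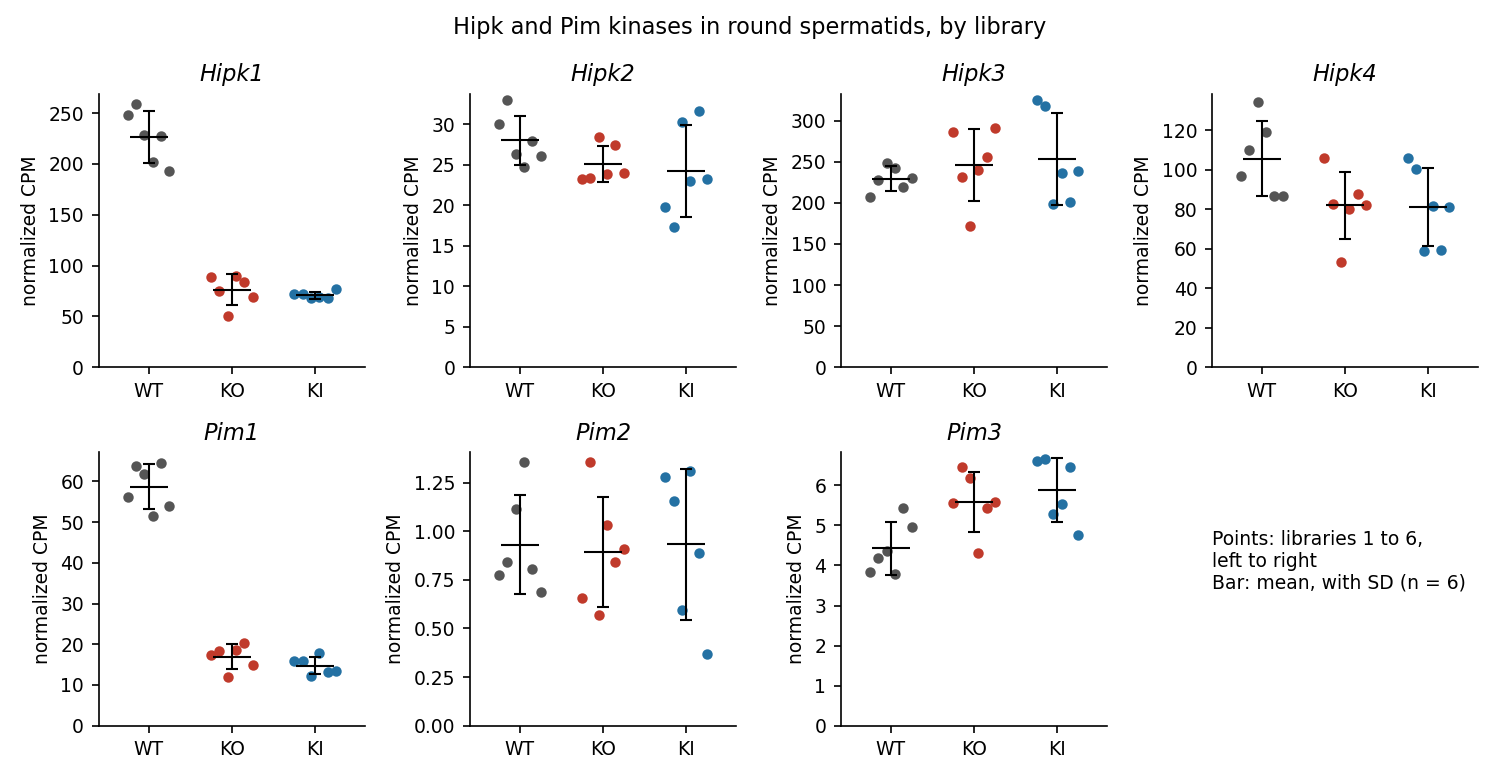
Normalized CPM (vertical axes, each from 0) of the 7 kinase genes in WT, KO and KI, with 1 point per library and the mean with its SD (n = 6). For Hipk1 and Pim1 all KO and KI libraries lie below the lowest WT library, and for the other 5 genes the genotypes overlap.

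Hipk1 (ENSMUSG00000008730, GRCm38 chr3:103739815-103791563, minus strand) encodes a nuclear kinase that phosphorylates homeodomain proteins, p53 and Daxx. In WT it was at 248, 259, 229, 202, 227 and 193 CPM in libraries 1 to 6. In KO it was at 88.9, 75.3, 50.1, 89.8, 84.1 and 69.1 CPM, and in KI at 72.3, 72.4, 67.6, 68.8, 68.3 and 76.6 CPM. The genotypes do not overlap between WT and either mutant, KO 3 was the lowest library of all, and the 6 KI libraries spread the least. The WT mean was 226 ± 25.5 CPM, the KO mean 76.2 ± 15.1 and the KI mean 71 ± 3.43 (SD, n = 6). Hipk1 was 2.97-fold lower in KO (log2 fold change -1.57, SE 0.13, adjusted p = 0.00985 against 1 log2 unit by edgeR) and 3.19-fold lower in KI (-1.67, SE 0.13, adjusted p = 0.00167). With the close pairs summed to 1 library each, the log2 fold changes were -1.62 and -1.64 and the adjusted p against 1 log2 unit rose to 0.116 in KO and 0.129 in KI, while the change of any amount kept adjusted p of 1.27e-05 and 2.36e-05 (edgeR).

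Hipk2 (ENSMUSG00000061436, chr6:38694390-38876165, minus strand), a kinase of the p53 and DNA damage response, was far scarcer than Hipk1. It ranged from 24.8 to 33.0 CPM in WT, 23.3 to 28.4 in KO and 17.3 to 31.7 in KI. The ranges overlap, and the KI libraries spread the most. The log2 fold change was -0.16 in KO (95% interval -0.44 to 0.12, adjusted p = 0.441 by edgeR) and -0.21 in KI (-0.49 to 0.06, adjusted p = 0.276).

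Hipk3 (ENSMUSG00000027177, chr2:104426481-104494446, minus strand), the Hipk gene nearest to Hipk1 in CPM in WT, stayed at its WT range or above it in most mutant libraries. It was at 207, 228, 249, 243, 219 and 230.1 CPM in WT libraries 1 to 6, at 286, 232, 172, 240.0, 256 and 291 in KO, and at 326, 318, 199, 237, 201 and 239 in KI. KO 3, KI 3 and KI 5 were below every WT library, and KO 1, KO 5, KO 6, KI 1 and KI 2 were above every one. The log2 fold change was 0.10 in KO (95% interval -0.20 to 0.40, adjusted p = 0.684 by edgeR) and 0.14 in KI (-0.16 to 0.45, adjusted p = 0.533). These intervals leave out a fall of 1 log2 unit.

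Hipk4 (ENSMUSG00000040424, chr7:27523267-27531175, plus strand), the spermatid kinase of the family, had a lower mean in both mutants that did not pass the test. It ranged from 86.8 to 135 CPM in WT with a mean of 106 ± 19.1, from 53.1 to 106 in KO with a mean of 82.0 ± 17.1, and from 59.0 to 106 in KI with a mean of 81.3 ± 19.8 (SD, n = 6). In each mutant 5 of 6 libraries were below the WT mean, and the same KO 3, KI 3 and KI 5 were the lowest. The log2 fold change was -0.37 in KO (SE 0.17, adjusted p = 0.13 by edgeR) and -0.38 in KI (SE 0.17, adjusted p = 0.112), close to the threshold of 0.1. Over 28 alternatives it was called lower in 3 for KO and in 7 for KI.

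Pim1 (ENSMUSG00000024014, chr17:29490753-29496112, plus strand), a kinase that phosphorylates cell cycle inhibitors and the death factor BAD, showed the largest fall of the 7. It was at 56.2, 63.9, 61.9, 51.5, 64.6 and 53.9 CPM in WT libraries 1 to 6, at 17.3, 18.4, 12, 18.7, 20.4 and 15 in KO, and at 16, 15.8, 12.2, 17.7, 13.2 and 13.5 in KI. The highest mutant library was at 20.4 CPM and the lowest WT library at 51.5, and KO 3 and KI 3 were again the lowest of their genotypes. Pim1 was 3.45-fold lower in KO (log2 fold change -1.79, SE 0.13, adjusted p = 0.000297 against 1 log2 unit by edgeR) and 3.98-fold lower in KI (-1.99, SE 0.13, adjusted p = 1.33e-05). Both calls against 1 log2 unit held in all 28 alternatives, with a highest adjusted p of 0.00827 in KO and 0.0055 in KI (edgeR or DESeq2).

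Pim2 (ENSMUSG00000031155, chrX:7878262-7883432, plus strand), best known in lymphoid cells, was barely present. It had between 9 and 31 counts per library, which is 0.690 to 1.36 CPM in WT, 0.570 to 1.35 in KO and 0.367 to 1.31 in KI. At this depth the log2 fold change was -0.05 in KO (95% interval -0.65 to 0.56) and 0.01 in KI (-0.59 to 0.61), so a change within these bounds was not detectable.

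Pim3 (ENSMUSG00000035828, chr15:88862186-88865726, plus strand), a kinase known for roles in energy metabolism and growth, was low and rose slightly. It was at 3.84, 4.18, 4.36, 3.78, 5.45 and 4.97 CPM in WT libraries 1 to 6, at 5.56, 6.46, 6.17, 4.30, 5.45 and 5.58 in KO, and at 6.62, 6.67, 5.29, 5.54, 6.45 and 4.77 in KI. The genotypes overlap, and 5 of 6 KO libraries and 6 of 6 KI libraries were above the WT mean of 4.43 CPM. The log2 fold change was 0.33 in KO (SE 0.14, adjusted p = 0.0926 by edgeR) and 0.41 in KI (SE 0.14, adjusted p = 0.0355). The KO call is at the edge of the threshold and was lost in 15 of 28 alternatives, DESeq2 among them (adjusted p = 0.146), and the KI call was lost in 2, those with the close pairs summed (adjusted p = 0.244 and 0.268).

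**Figure D2:**
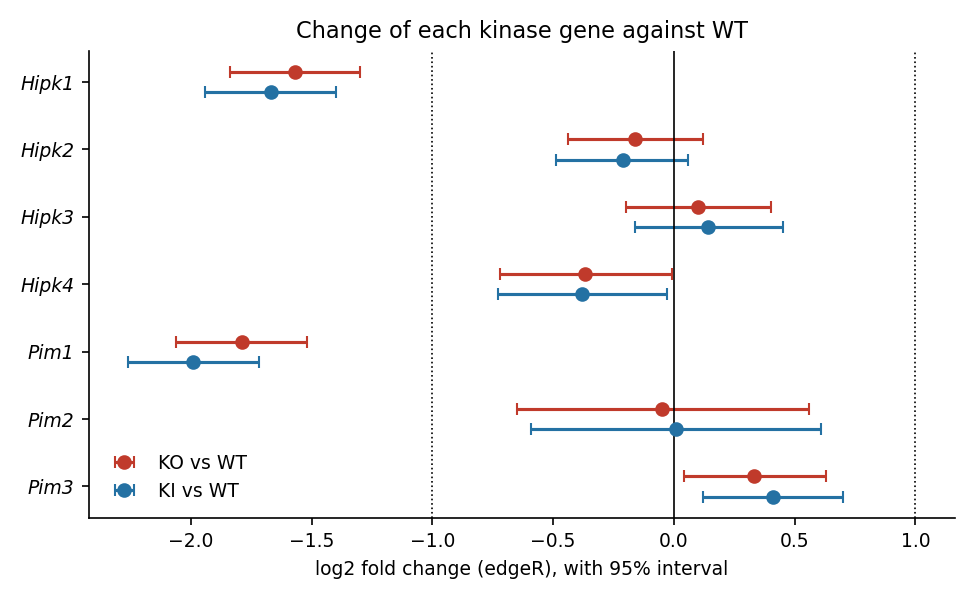
Log2 fold change against WT (horizontal axis) of each kinase gene in KO and KI, with 95% intervals from the edgeR fit. Dotted lines mark 1 log2 unit in either direction, and the intervals of Hipk1 and Pim1 alone lie wholly beyond it.

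Between the mutants no kinase gene passed the test. Of the 7 genes, 0 passed for KI against KO by edgeR, where 0.0997% of all genes passed in either direction (16 higher and 5 lower), 0 had an unadjusted p under 0.05 and 0 passed by DESeq2. The log2 differences of KI from KO were -0.10 for Hipk1 (95% interval -0.37 to 0.16) and -0.20 for Pim1 (-0.47 to 0.06). Without the library labelled KI 4, the genes called between the mutants rose to 60 higher and 51 lower, and DESeq2 on all libraries called 71 and 15. Summing the close pairs left 1 higher and 0 lower. Leaving out KI 2 left 7 and 1, and requiring at least 10 counts in every library left 3 and 2. No kinase gene was called between the mutants in any of its alternatives, where the lowest adjusted p was 0.557, for Pim1.

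The question of how Hipk1 and Pim1 compare with their paralogs was put to each library on its own, as the log2 ratio of the gene to its paralog, which needs no scaling between libraries. Hipk1 stood at 3.01 ± 0.08 log2 units over Hipk2 in WT and at 1.58 ± 0.41 in KO and 1.58 ± 0.38 in KI (SD, n = 6). Against Hipk3 the ratio was level in WT, at -0.02 ± 0.22, and fell to -1.70 ± 0.22 in KO and -1.81 ± 0.28 in KI. Against Hipk4 it was 1.11 ± 0.28 in WT, -0.10 ± 0.16 in KO and -0.16 ± 0.32 in KI. Hipk1 thus went from more than Hipk4 to about the same CPM. The differences from WT were -1.43, -1.67 and -1.21 log2 units in KO and -1.43, -1.78 and -1.27 in KI.

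For the Pim genes the ratio of Pim1 to Pim2 was 5.88 ± 0.39 in WT, 4.15 ± 0.33 in KO and 3.95 ± 0.51 in KI, and the ratio to Pim3 was 3.71 ± 0.19, 1.58 ± 0.40 and 1.31 ± 0.23 (SD, n = 6). The differences from WT were -1.73 and -2.13 in KO and -1.92 and -2.40 in KI. The change of the ratio to Pim3 was the largest of the 10 ratios compared, since Pim1 fell and Pim3 was slightly higher. In all 10 the mutant libraries did not overlap the WT libraries, and each gave p = 0.00216 by the exact permutation test over libraries (two-sided), the smallest that 6 against 6 can give, and the same after Benjamini-Hochberg adjustment over the 10. With the close pairs averaged the differences ran from -2.33 to -1.24, but 5 libraries against 3 (KO) cannot go below an exact p of 0.0357 and 4 against 3 (KI) below 0.0571, and the adjusted p was 0.0571 for all 10. Over all genes tested, single genes were lower with no overlap between the genotypes in 6.44% for KO and 7.91% for KI.

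**Figure D3:**
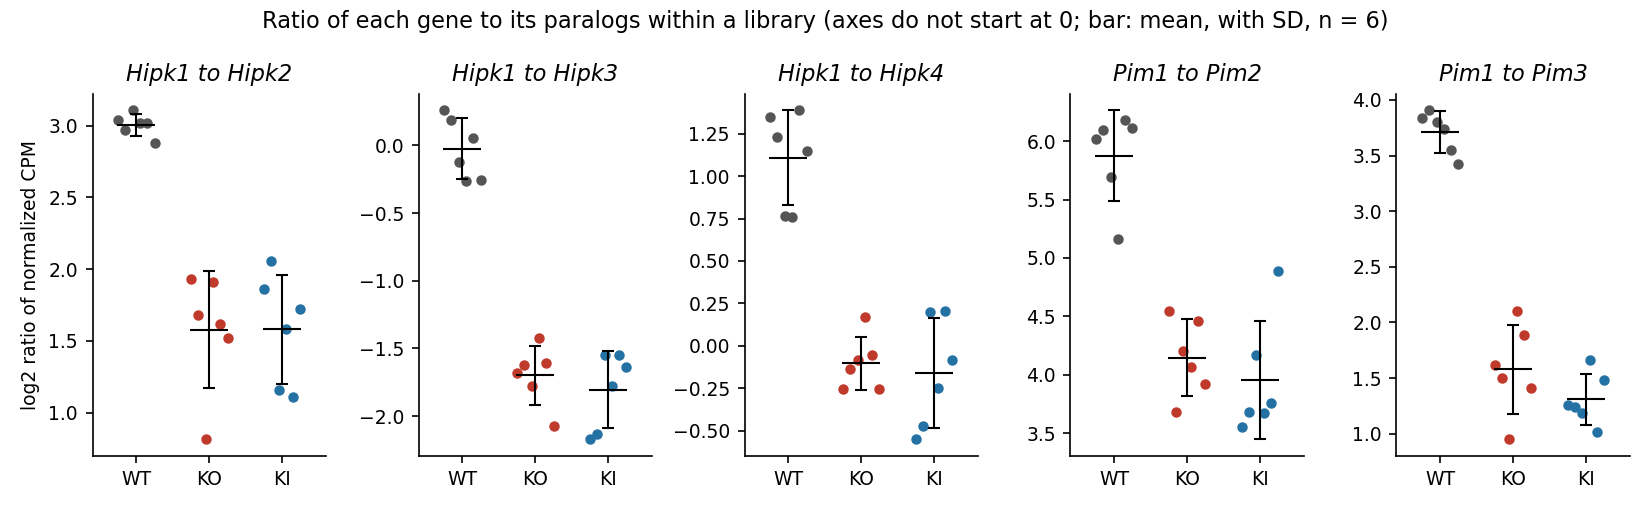
Log2 ratio of normalized CPM (vertical axes, not from 0) of Hipk1 to Hipk2, Hipk3 and Hipk4 and of Pim1 to Pim2 and Pim3 in each library, with the mean and SD (n = 6). In every panel the KO and KI points lie below all WT points.

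To compare genes with one another, CPM was divided by the exon length that the authors' annotation gives, in kb. In WT the order was Hipk4 (29.0 ± 5.23 CPM per kb), Hipk3 (28.7 ± 1.91), Pim1 (22.2 ± 2.10), Hipk1 (20.7 ± 2.34), Hipk2 (3.17 ± 0.343), Pim3 (1.82 ± 0.271) and Pim2 (0.333 ± 0.0907; SD, n = 6 for each). Hipk4 and Hipk3 overlap in range, as do Pim1 and Hipk1, and the lowest Hipk4 library reaches the range of Pim1, while each step from Hipk1 downward is wider than the spread. The first 4 are among the more abundant genes of the RS, above 86.2% to 89.7% of the genes tested per length, and Pim2 is above 15.7%.

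In the mutants Hipk1 and Pim1 left the upper group. Hipk1 was at 6.98 ± 1.39 CPM per kb in KO and 6.51 ± 0.314 in KI, and Pim1 at 6.43 ± 1.14 and 5.58 ± 0.801, below the Hipk3 and Hipk4 range (14.6 to 40.8) and above that of Hipk2 (1.96 to 3.59). Of the summed level of the 4 Hipk genes per length, Hipk1 made up 25.5% ± 2.92 in WT but 11.1% ± 1.26 in KO RS and 10.5% ± 1.68 in KI RS (SD, n = 6). Of the 3 Pim genes, Pim1 made up 91.1% ± 0.925 in WT and still 70.7% ± 5.26 in KO and 66.9% ± 3.31 in KI. The summed Pim level went from 24.4 ± 2.20 CPM per kb in WT to 9.06 ± 1.12 in KO and 8.35 ± 1.09 in KI, and the summed Hipk level from 81.6 ± 7.15 to 63.1 ± 10.7 and 63.2 ± 11.9.

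**Figure D4:**
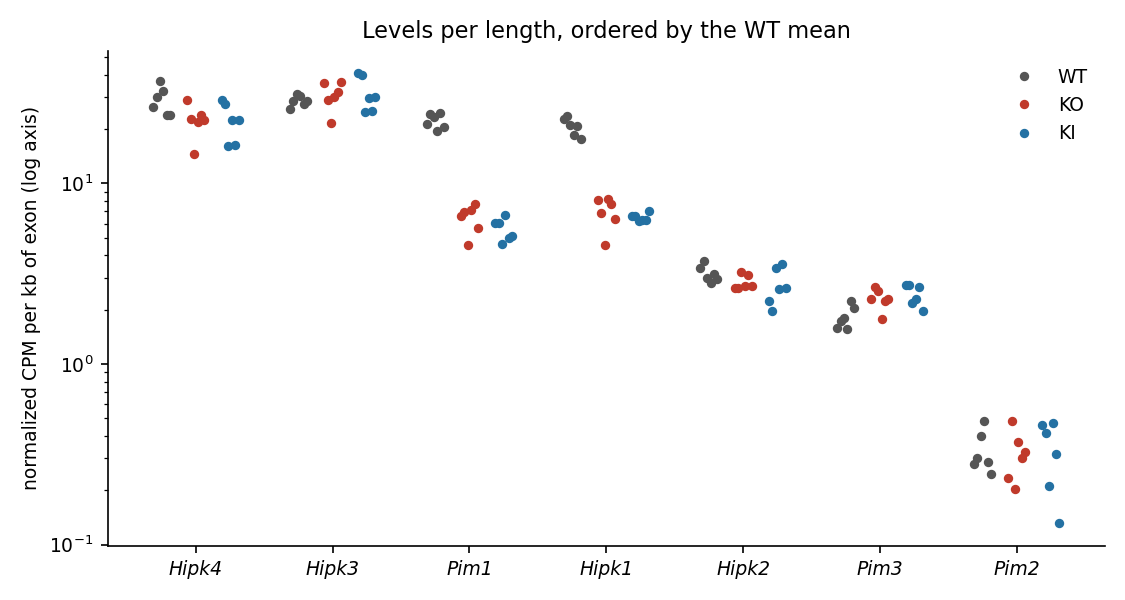
Normalized CPM per kb of exon (vertical log axis) of the 7 kinase genes, ordered by their WT mean, with 1 point per library. Hipk1 and Pim1 sit with Hipk3 and Hipk4 between 17.7 and 36.9 in WT and between these and Hipk2 in KO and KI.

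Genes that overlap the kinase genes were read for shared counts, since counting was by strand. Within Hipk1, the antisense gene Gm15886 had a WT mean of 10.1 ± 1.52 CPM, a KO mean of 9.56 ± 2.98 and a KI mean of 9 ± 1.62 (SD, n = 6), with log2 fold changes of -0.08 and -0.17 (adjusted p = 0.821 and 0.575 by edgeR). The sense intronic genes Gm43149 and Gm43387 were each below 1.3 CPM in every library, and Gm10964, on the opposite strand at the 3′ end of Hipk1, had 0 counts in all 18 libraries, as had Mir1902 inside Hipk3. Tbxas1, opposite the 5′ end of Hipk2, and Gm26885, opposite the start of Pim1, were at most at 0.353 and 0.594 CPM. Gm15886 overlaps Hipk1 and not Pim1, and its mean was below that of Hipk1 in each genotype.

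The 3′ UTRs of the 7 genes were searched for seed matches of 5 miRNAs, among them miR-26a-5p, which the study examined for both Hipk1 and Pim1, and miR-15a-5p and miR-322-5p, which share a seed. The seed (bases 2 to 8) is in capitals in these mature sequences from RefSeq, GRCm38.p6.
miR-26a-5p: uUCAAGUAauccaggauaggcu
miR-15a-5p: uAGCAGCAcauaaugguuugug
miR-322-5p: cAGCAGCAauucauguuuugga
The letters searched on the transcribed strand were TACTTGA and TGCTGCT, which pair with bases 2 to 8, and ACTTGAA and GCTGCTA, which pair with bases 2 to 7 and end in A. TACTTGA and ACTTGAA overlap as the 8 letters TACTTGAA. TACTTGA is in the longest annotated 3′ UTR (GENCODE M21) of 9.75% of 20846 genes and ACTTGAA in 14.2%, and among UTRs within 10% of the length of that of Pim1 in 9.31% and 13.8%.

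The matches to miR-26a-5p are shown because the study examined this miRNA for both Hipk1 and Pim1. They lay, with GRCm38 coordinates and the match in capitals, in 4 of the 7 genes.
Hipk1, chr3:103743545-103743566, minus strand: ggggaaatgctgACTTGAAatc
Hipk1, chr3:103742693-103742714, minus strand: tgtagtgattacACTTGAAttg
Hipk2, chr6:38697989-38698010, minus strand: ggcacaaatgaaACTTGAActa
Pim1, chr17:29495185-29495207, plus strand: tgctgggagaaaTACTTGAActt
Pim3, chr15:88864991-88865013, plus strand: gccctgggtggaTACTTGAAcca
Pim1, which fell, and Pim3, which was slightly higher, hold the same 8 letters. Hipk1, which fell, holds 2 matches of 7 letters, and Hipk2, whose interval includes 0, holds 1. Of UTRs within 10% of the length of that of Hipk1 (4133 bases), 35.9% hold ACTTGAA. No such letters were found in the UTRs of Hipk3, Hipk4 and Pim2. Any part of these matches in the levels of the kinase genes was not tested.

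The matches to the seed of miR-15a-5p and miR-322-5p are shown for Pim1 and Pim3, where 1 follows the miR-26a-5p match in both genes, starting 22 bases after it in Pim1 and 24 bases after it in Pim3.
Pim1, chr17:29495207-29495228, plus strand: ttacctcttaccTGCTGCTtct
Pim3, chr15:88865015-88865036, plus strand: agatcccgacccTGCTGCTcca
TGCTGCT is in 20.5% of all 3′ UTRs. A second match lies near the start of the Pim1 UTR, and Hipk1, Hipk2 and Hipk3 hold 1 match each to that seed, in Hipk3 as GCTGCTA. Matches to miR-142a-5p lay in Hipk1 and Hipk2 and matches to miR-181d-5p in Hipk1, Hipk2 and Hipk3. A match of letters is not a binding site, and levels of miRNAs were not analysed here.

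Among relatives and partners of the HIPK kinases, the DYRK and CLK kinases, which share the same branch of the kinase tree, moved in both directions. Of 10 genes tested, 3 rose and 2 fell in KO and 2 rose and 1 fell in KI, with a median log2 fold change of -0.06 and 0.14 beside 0.03 and 0.05 for all genes. With a single library left out 1 or 2 fell in either mutant, and on the scale of total counts 4 rose and 1 fell in each and the KO median turned to 0.06. Summing the close pairs left 2 that rose and 1 that fell in each. Dyrk1b, the most abundant of them per length, fell from 430 CPM in WT to 199 in KO (log2 fold change -1.11, SE 0.16) and 191 in KI (-1.17, SE 0.16), with adjusted p of 1.93e-05 and 9.10e-06 by edgeR for any change, and did not pass the test against 1 log2 unit. Dyrk1a rose from 23.3 CPM to 35.8 and 35.7, and Dyrk4 from 22.5 CPM to 40.6 and 35.3. Dyrk2 rose in KO (log2 fold change 0.53, adjusted p = 0.0422 by edgeR) and was at 0.35 in KI (adjusted p = 0.179). Clk4, named after its values were seen, fell in KO by 0.27 (adjusted p = 0.0945).

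Of 17 tested partners and substrates of HIPK kinases, 9 rose and 0 fell in KO and 7 rose and 0 fell in KI, with a median log2 fold change of 0.37 and 0.33. By the same test, 16.4% and 16.1% of all genes rose. With the close pairs summed 4 and 1 rose, and on the scale of total counts 11 and 13. Lef1, a Wnt transcription factor, rose from 80 CPM in WT to 123 in KO (log2 fold change 0.62, adjusted p = 0.000575 by edgeR) and 135 in KI (0.75, adjusted p = 6.10e-05). Axin1, a scaffold of the Wnt pathway, and Ski, a co-repressor, rose by 0.40 and 0.54 log2 units in KO and 0.39 and 0.46 in KI. Pml, the organizer of nuclear bodies, rose from 0.929 CPM to 1.69 and 1.43. Rimbp3, which encodes a protein of the spermatid manchette and was the most abundant of the list, had means of 422, 549 and 493 CPM in the 3 genotypes (log2 fold changes 0.38 and 0.22, adjusted p = 0.33 and 0.587).

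Of 9 genes of HIPK turnover and SUMO modification, 1 rose in KO and 2 rose in KI. The SUMO protease gene Senp1 rose in KI by 0.33 (adjusted p = 0.0302 by edgeR) and was at 0.25 in KO (adjusted p = 0.104), and Mdm4, an inhibitor of p53, rose in KI by 0.24 (adjusted p = 0.054). Siah1b, one of the ubiquitin ligases that destroy HIPK2, rose in KO by 0.53 (adjusted p = 0.0982). Mdm2, the most abundant of the list per length, was at 256, 307 and 298 CPM in WT, KO and KI (adjusted p = 0.186 and 0.276). With 1 library left out, between 0 and 2 rose in KO and between 1 and 4 in KI, and with the close pairs summed 0 rose in either (edgeR). On the scale of total counts 5 rose in KO and 6 in KI.

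Among 11 tested genes of JAK-STAT and NF-kB signalling, which lies upstream of PIM expression, 6 rose and 0 fell in KO and 6 rose and 1 fell in KI, with medians of 0.53 and 0.45. The one that fell, named after its values were seen, was Nfkb1, at a log2 fold change of -0.59 (adjusted p = 0.0433 by edgeR), and without WT 1 or WT 2, or after summing the close pairs, 0 fell (edgeR). With the close pairs summed 4 and 3 rose, and without the library labelled KI 4 the counts were 6 and 5. The kinase gene Jak1 rose from 8.28 CPM to 14 in KO (log2 fold change 0.76, adjusted p = 0.000368 by edgeR) and 13 in KI (0.65, adjusted p = 0.00131). Rela, the p65 subunit of NF-kB and the most abundant of the list per length, rose from 14.5 CPM to 24.3 and 24.6. Jak3 rose by 0.69 and 0.45 log2 units, and Il6st, the shared receptor of the IL-6 family, by 0.65 and 0.53. All of these were far below Pim1 in WT, at most at 5.35 CPM per kb.

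Of 15 tested PIM substrates, 1 rose and 4 fell in KO and 0 rose and 3 fell in KI, with medians of 0.07 and 0.00. Map3k5, the stress kinase ASK1, fell from 10.1 CPM to 5.13 in KO (log2 fold change -0.97, adjusted p = 0.00102 by edgeR) and 5.80 in KI (-0.79, adjusted p = 0.00478). Nfatc1, a transcription factor, fell from 2.45 CPM to 1.21 and 1.23, and Eif4b, a translation factor and the most abundant of the list per length, fell in KI by 0.58 (adjusted p = 0.0158) and was at -0.22 in KO (adjusted p = 0.4). Cdc25c, a phosphatase of the cell cycle, fell in KO by 0.57 (adjusted p = 0.0343) and was at -0.36 in KI (adjusted p = 0.192). Named after their values were seen, Cdkn1b, a cell cycle inhibitor, fell in KO by 0.62 (adjusted p = 0.0886 by edgeR) and Foxo1, a transcription factor, rose in KO by 0.56 (adjusted p = 0.0745). With KO 4, WT 4 or WT 5 left out, 0 rose in KO, and with the library labelled KI 4, WT 1, WT 2, WT 3 or WT 6 left out, 1 rose in KI (edgeR). After summing the close pairs 0 substrates rose and 2 fell in each mutant (edgeR). On the scale of total counts 5 substrates rose and 3 fell in KO, and 4 rose and 3 fell in KI.

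Of 8 genes of SOCS proteins, HSP90 and PP2A, which hold back PIM signals or stabilize and remove PIM proteins, 2 rose and 1 fell in KO and 3 rose and 1 fell in KI, with medians of 0.32 and 0.38. The catalytic subunits of PP2A moved apart, since Ppp2ca rose by 0.43 and 0.37 log2 units (adjusted p = 0.00862 and 0.0208 by edgeR) and Ppp2cb fell by 0.52 in KO and by 0.54 in KI (adjusted p = 0.016 and 0.0115). The chaperone gene Hsp90ab1 rose from 276 CPM to 407 and 392, and Hsp90aa1, the most abundant of the list, was at 2290, 2591 and 2552 CPM (adjusted p = 0.53 and 0.576). Socs3 rose in KI by 1.02 log2 units from 0.645 CPM (adjusted p = 0.0436) and was at 0.45 in KO (adjusted p = 0.443). Without KI 1 only 1 gene of this list rose in KI, with the close pairs summed 1 rose and 1 fell in KO and 0 rose and 0 fell in KI (edgeR), and on the scale of total counts 5 rose in KI.

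The genes whose levels followed those of Hipk1 most closely were taken from all genes tested by Pearson's r of log2 CPM over the 18 libraries, as a description without a test. The libraries fall into WT and mutants, and r spans this gap, so the r of deviations from the genotype means is given beside it. For Hipk1 the first 5 were Spata18, Gm5893, Gpi1, Lipe and Rangap1, with r of 0.995 to 0.997 and 0.91 to 0.96 within genotypes. Spata18, which takes part in mitochondrial quality control, had means of 670 CPM (WT), 125 (KO) and 112 (KI), and Gpi1, a glycolytic enzyme, of 332, 94.5 and 91.4 CPM. For Pim1 the first 5 were Lrrc57, Gm16279, 1700009J07Rik, Tppp2 and Atl3, with r of 0.991 to 0.995 and 0.85 to 0.89 within genotypes. Lrrc57 had means of 205 CPM (WT), 23.9 (KO) and 17.6 (KI), and Tppp2, a tubulin-binding protein of sperm, of 229, 38.9 and 35.1 CPM. All 10 genes were lower than WT past 1 log2 unit in both mutants, where 1.13% (KO) and 1.43% (KI) of all genes tested were. Their choice by r on these libraries, across the gap between WT and mutants, largely fixed this outcome.

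Marker genes of the cell types that a RS preparation can hold were read beside these results. The gene named for each list is the one with the highest mean CPM over all 18 libraries, and it is not always the highest within a genotype. All 8 RS markers were detected, and they summed to 659 ± 146 CPM (WT), 606 ± 177 (KO) and 500 ± 51.7 (KI; SD, n = 6; Spaca1 highest), with 1 of 8 lower in KO (Catsper3) and 3 of 8 in KI (Catsper3, Sun5 and Spaca7, named after their values were seen). Without KO 1, the highest KO library at 948 CPM, 3 of 8 were lower in KO and the median log2 fold change went from -0.06 to -0.31, and with the close pairs summed 0 were lower in KO and 1 in KI (edgeR). Markers of late spermatids, of which the study describes Prm2 and Tnp2 as already transcribed and stored in RS, were far more abundant in WT. All 10, among them the protamine and transition protein genes, fell past 1 log2 unit in both mutants, with a median log2 fold change of -2.13 in KO and -2.37 in KI. They summed to between 15744 and 21727 CPM in WT, between 1840 and 4670 in KO and between 2454 and 3767 in KI (Prm2 highest), and none was at 0. KO 3, lowest of the KO libraries for these markers, was also lowest for Hipk1, Hipk3, Hipk4 and Pim1, and KI 3, lowest of the KI libraries, was lowest for Hipk1, Hipk3, Hipk4 and Pim1 as well. The same KO 3 and KI 3 were also the lowest of their genotypes for RS markers, at 455 and 414 CPM, and the highest for spermatocyte markers, at 1044 and 1185 CPM. The part of these cell types in the levels of Hipk1 and Pim1 was not tested.

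**Figure D5:**
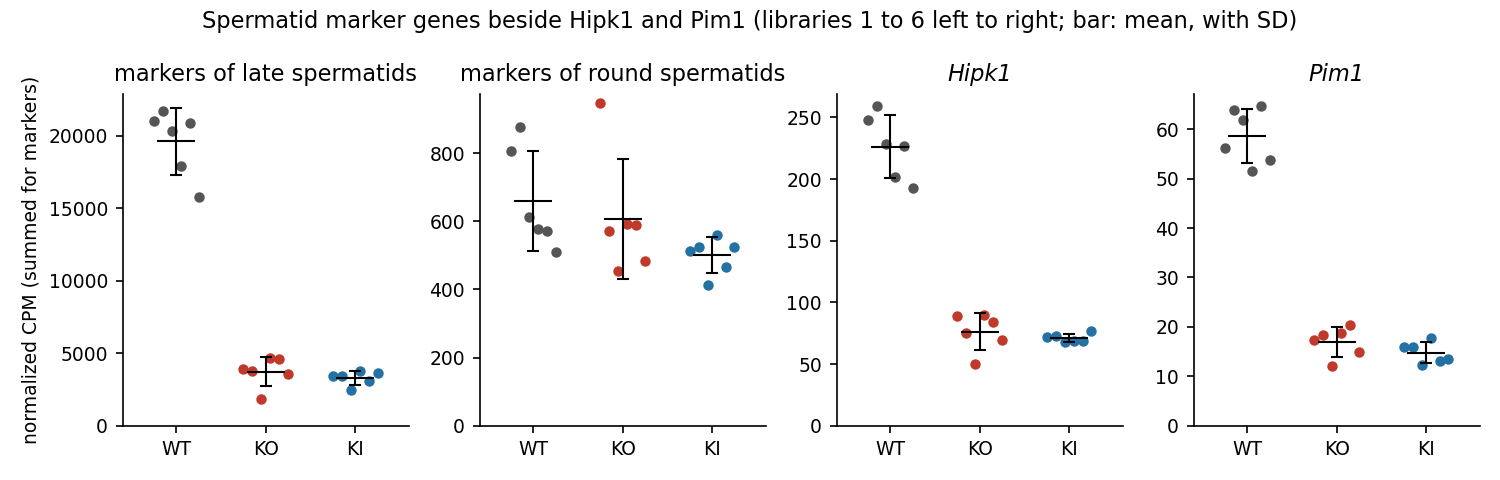
Summed normalized CPM of 10 late spermatid and 8 round spermatid marker genes, and normalized CPM of Hipk1 and Pim1 (vertical axes from 0), with 1 point per library and the mean with its SD (n = 6). The late spermatid markers, Hipk1 and Pim1 are all lower in every KO and KI library than in any WT library, and the round spermatid markers overlap between genotypes.

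Markers of other cells were scarce, apart from those of spermatocytes, and moved in part with the genotype. All 6 Leydig cell markers rose in both mutants, from a sum of 12 ± 3.82 CPM in WT to 40 ± 9.91 in KO and 34.9 ± 21.9 in KI (Cyp17a1 highest), and within KI they were at 46.2, 66.1 and 49.5 CPM in libraries 1, 2 and 4 and at most at 17.7 in the other three. Leukocyte markers (Adgre1 highest) summed to 6.43 ± 1.51, 9.42 ± 2.19 and 10.8 ± 2.21 CPM, with 2 of 5 tested rising in each mutant, and endothelial markers (Vwf highest) to 14.8 ± 2.64, 24.8 ± 5.38 and 23.5 ± 3.38 CPM, with 2 of 5 rising in each. With KO 2, WT 1 or WT 2 left out, 0 leukocyte markers rose in KO, and with the close pairs summed 0 rose in KO and 1 in KI (edgeR). Spermatogonial markers (Kit highest) summed to 34.2 ± 3.75, 49.8 ± 13.8 and 38.6 ± 19.4 CPM, with 2 of 7 rising in KO and 1 in KI. Spermatocyte markers (Sycp2 highest) summed to 908 ± 95.5, 914 ± 74.4 and 966 ± 174 CPM, with 3 of 7 rising and 2 falling in KO and 2 rising and 1 falling in KI. Sertoli cell markers (Wt1 highest) summed to 8.09 ± 2.11, 5.99 ± 1.55 and 6.23 ± 1.29 CPM, with 1 of 6 falling in each. Peritubular myoid markers (Tagln highest) had means of 5.18 to 5.73 CPM, with 2 of 4 tested rising and 1 falling in KO and 1 rising and 1 falling in KI (Myh11, named after its values were seen, fell in both, with log2 fold changes of -1.54 and -1.73), and erythroid markers (Alas2 highest) of 1.79 to 2.68 CPM, with 1 of 2 tested falling in each and 1 rising in KI. Once the close pairs were summed, 1 spermatogonial marker rose in KO and 0 in KI, 2 spermatocyte markers rose and 0 fell in KO and 1 rose and 0 fell in KI, 0 Sertoli cell markers fell in either, and 0 erythroid markers rose in KI (edgeR). With 1 library left out, spermatogonial markers that rose numbered 1 to 3 in KO and 0 to 2 in KI, leukocyte markers 0 to 3 and 1 to 3, myoid markers 1 to 2 in KI and erythroid markers 0 to 2 in KI. In the same way 1 to 3 spermatocyte markers rose and 0 to 2 fell in KI, and 0 to 1 endothelial markers fell in KI. Whether these cells carried any part of the rise of the low JAK-STAT genes or of Pim3 was not tested.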

How the data were processed

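RNA of RS was sequenced in 18 libraries. The authors used cutadapt 3.4 for trimming and STAR 2.7.8a for alignment to GRCm38, and counted fragments by strand on GENCODE M18 genes with featureCounts (Subread 2.0.1) without removing duplicates, and the deposited values are raw counts. The table was used unchanged, and 0 columns were left without a library. The submitters' processing notes also name FastQC 0.11.9, SAMtools 1.12 and Bowtie2. Exon length is the annotation's length column, and gene positions and 3′ UTRs are from GENCODE M21.

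Counts were filtered with filterByExpr, scaled with TMM factors and fitted in 1 quasi-likelihood model of genotype over all 18 libraries (R 4.3.3, edgeR 4.0.16, limma 3.58.1). The test against 1 log2 unit was glmTreat (worst-case null) and that against no change glmQLFTest, both adjusted by Benjamini-Hochberg over 21058 genes with a threshold of 0.1. The code was tested on simulated counts. Log2 CPM for ratios and for likeness used a prior count of 2. Ratios were compared by exact permutation tests (scipy, two-sided) with a threshold of 0.05 on the adjusted p. The floor was set at 3 counts in a library, 0.112 to 0.160 CPM. This and intervals from counts cover counting error only, since PCR copies are not independent molecules.

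The kinase genes and the lists (relatives, partners, upstream genes, substrates, brakes and cell type markers) were chosen with earlier results of these data known. From each list other than markers, the text names up to 4 genes with the smallest adjusted p and the most abundant gene per length, of each marker list the most abundant gene, the 5 genes most like Hipk1 and Pim1, and each gene overlapping a kinase gene. Alternatives were DESeq2 1.42.0, its size factors, total counts, 2 other filters, only the genotypes compared, the replicate block, a threshold of 0.05, a prior count of 0.5, each library left out, and close pairs joined with and without the library labelled KI 4. The null interval form of glmTreat was added after the data were seen. miRNA counts, qRT-PCR and reporter assays were not used here. A withheld item, and the counts that need it, are not reported here.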

Additional observations from a re-analysis of the deposited data

Results flagged for a closer look

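Among 6 libraries the gap of the highest or lowest to its neighbour, as a share of the whole range, was compared with Dixon's critical value of 0.625. Ddx25 in the library labelled KI 4, at 56.9 CPM, stood apart from the other 5 KI libraries, which lay between 0.0456 and 0.519 CPM, with a gap of 0.992 of the range. None of the 21 sets of 6 values of the 7 kinase genes exceeded the critical value, where chance gives about 1 in 20.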

How the results depend on the processing

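The mean level of each kinase gene in each genotype moved by less than its SD in all 147 alternative values. Of 171 alternative counts of kinase genes called, 167 stayed within 1.5 times the main count. The 4 others were the counts past 1 log2 unit in KO and KI with the close pairs summed, with or without the library labelled KI 4, where 1 gene passed (Pim1) in place of 2. Of the 220 alternative paralog ratios, 200 kept their direction and their side of the threshold. The other 20 are those with the close pairs averaged, where 5, 4 or 3 libraries face 3, and the adjusted p was above the threshold of 0.05 used for the ratios. There the differences in KO and KI were -1.47 and -1.41 for Hipk1 to Hipk2, -1.71 and -1.76 to Hipk3, -1.24 and -1.27 to Hipk4, -1.75 and -1.84 for Pim1 to Pim2, and -2.21 and -2.33 to Pim3 (exact permutation adjusted p = 0.0571). Without the library labelled KI 4 as well, those of KO were the same and those of KI were -1.40, -1.76, -1.24, -1.72 and -2.43 (exact permutation adjusted p of at most 0.1). With 1 library left out the 10 ratios stayed between -2.47 and -1.16.

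Total counts in place of TMM moved the median of all genes from 0.0258 to 0.146 log2 units in KO and from 0.0539 to 0.203 in KI. The genes called higher and lower for any change went from 3461 and 2836 to 5214 and 2151 in KO, and from 3397 and 3247 to 5628 and 2485 in KI. On that scale Hipk1 was at -1.45 in KO and -1.52 in KI. With the close pairs summed they were 1871 and 1784 in KO and 1619 and 1783 in KI, and the genes lower past 1 log2 unit in KI went from 301 to 175.

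Replicate numbers did not pair the libraries, with correlations of deviations from -0.441 to 0.481. With the replicate block, 2 kinase genes in KO and 4 in KI changed by any amount, Hipk4 among the latter (-0.41, adjusted p = 0.0854 by edgeR) and Pim3 not among the former (adjusted p = 0.111), and 2 passed 1 log2 unit in each. As differences within replicate number, the 10 ratios each gave an exact permutation p of 0.0312, the smallest that 6 pairs allow. Hipk2 was called lower in KI in 1 alternative, without KI 5 (-0.30, adjusted p = 0.0997 by edgeR). Depth limits statements on Pim2, with 9 to 31 counts per library.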
